A study of Mus musculus with 24 samples.

Results

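The genes described here are the integrin and laminin subunits, 31 of the 47967 genes in a table of RNA-seq counts. They were taken by symbol and biotype, as protein-coding genes named Itga or Itgb followed by a number, Lama, Lamb or Lamc followed by a number, and Itgav, which gives 20 integrin subunits and 11 laminin chains. The rule uses symbols and no measured value, though the family itself was picked with earlier results of these data known. Mouse embryonic fibroblasts (MEFs), a connective tissue cell type taken from embryos of the C57BL/6 strain at embryonic day 13.5 to 14.5, had been infected with retroviruses that carry sets of genes known to turn fibroblasts into cells with features of heart muscle. AGHMT stands for the kinase Akt1 with the transcription factors Gata4, Hand2, Mef2c and Tbx5, GHMT is the same set without Akt1, and GMT lacks both Akt1 and Hand2. The 8 groups were AGHMT, GHMT, GMT and mock at day 7 of induction and the same at day 2, with 3 libraries each. The labels do not say whether mock cells received an empty virus, and all groups came from the same strain and were labelled as one cell type. They also do not say whether the 3 libraries of a group came from separate cultures, so the p-values describe library to library variation that could be technical in origin. The cocktails of a day share its 3 mock libraries, so their differences from mock are set side by side and not counted as separate support.

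Integrins are receptors that span the cell membrane, each made of 1 alpha and 1 beta chain, and they hold cells to the extracellular matrix and signal from it. Laminins are large cross-shaped proteins of the basement membrane, each made of 1 alpha, 1 beta and 1 gamma chain, and the alpha chain carries most of the sites that receptors bind. In heart and skeletal muscle the chain Lama2 lines each muscle fibre, where the integrin pair Itga7 and Itgb1 and the dystrophin-glycoprotein complex hold it. Fibroblasts lie in collagen and fibronectin instead and hold them mainly through Itga11, Itga1 and Itga2 and through Itga5 and the partners of Itgav.

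The cocktail genes followed the labels. Hand2 averaged 1125 ± 10.9 CPM (read counts scaled to a common library size) in AGHMT and 978 ± 42.1 CPM in GHMT at day 7, against 3.23 ± 0.199 CPM in GMT and 7.58 ± 0.411 CPM in mock cells (SD, n = 3). Akt1, which every group expressed, averaged 451 ± 7.20 CPM in AGHMT, 382 ± 1.72 in GHMT, 380.1 ± 7.17 in GMT and 385 ± 22.5 in mock cells at day 7, and AGHMT exceeded GHMT by 0.24 ± 0.04 (adjusted p = 2.68e-05) on the log2 scale. Gata4, Mef2c and Tbx5 were at 627 to 1508, 1619 to 3108 and 1700.5 to 3479 CPM in cocktail libraries of both days, against 1.33 to 1.87, 12.8 to 35.6 and 10.3 to 11.8 CPM in mock libraries. Levels are given throughout as CPM scaled by TMM factors, as mean ± SD of 3 libraries, and differences as log2 fold changes ± standard error (SE) with adjusted p-values from edgeR's quasi-likelihood test. That test gives no SE, so it was derived as the absolute log2 fold change divided by the square root of the F value. A gene was called higher or lower at an adjusted p below 0.05. The 10 fibroblast markers summed to 10144 to 10830.0 CPM in AGHMT, 7990.0 to 8834 in GHMT, 5034 to 5445 in GMT and 61260.0 to 66610.0 in mock libraries of day 7, and the 9 cardiac markers to 20088 to 21087, 15032 to 16055, 9011 to 9518 and 21.2 to 24.4 CPM in the same order. In bulk RNA, fewer cells of a type and less RNA per cell cannot be told apart. One library, replicate 3 of AGHMT at day 2, stood apart from its group. In that library the 2197 genes of at least 8120 exonic bases had a median log2 level -0.23 relative to the mean of the other 2 libraries of its group, while the 2198 genes of at most 2728 bases stood at 0.28. The laminins are long genes, and named results whose call changes without this library are given with and without it.

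The promoters of 3 members whose levels moved far are shown first. Other members that moved far, such as Itga6, Itga7 and Lama4, had no promoter sequence to show. RefSeq's table for GRCm38.p6 gave promoters, from 250 bases before to 50 bases after the gene's start, for 20 of the 31 members in 23 entries. Among the members without an entry were Itga6, Itga7, Itgb2, Itgb3, Itgb4, Lama1, Lama3, Lama4, Lamc1 and Lamc3. The promoter of Lama2 lies at chr10:27616893-27617192 on the minus strand, that of Itga10 at chr3:96645334-96645633 and that of Itga11 at chr9:62677605-62677904, both on the plus strand. The Lama2 window follows RefSeq's start, which lies inside the longer gene of GENCODE, whose outermost start on the minus strand is at 27619758. Each is written 5′ to 3′, and capitals mark an E-box, the short sequence that Hand2 and its relatives can bind.
Lama2: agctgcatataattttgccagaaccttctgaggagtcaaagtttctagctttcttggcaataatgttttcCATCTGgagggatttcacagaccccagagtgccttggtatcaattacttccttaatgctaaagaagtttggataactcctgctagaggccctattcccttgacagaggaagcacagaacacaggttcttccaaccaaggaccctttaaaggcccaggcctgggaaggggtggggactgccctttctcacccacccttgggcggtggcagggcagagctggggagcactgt
Itga10: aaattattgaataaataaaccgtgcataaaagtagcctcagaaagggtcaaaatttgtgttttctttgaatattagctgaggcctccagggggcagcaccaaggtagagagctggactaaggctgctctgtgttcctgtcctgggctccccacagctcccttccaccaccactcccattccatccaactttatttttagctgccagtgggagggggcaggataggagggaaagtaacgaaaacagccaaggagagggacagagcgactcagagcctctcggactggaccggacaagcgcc
Itga11: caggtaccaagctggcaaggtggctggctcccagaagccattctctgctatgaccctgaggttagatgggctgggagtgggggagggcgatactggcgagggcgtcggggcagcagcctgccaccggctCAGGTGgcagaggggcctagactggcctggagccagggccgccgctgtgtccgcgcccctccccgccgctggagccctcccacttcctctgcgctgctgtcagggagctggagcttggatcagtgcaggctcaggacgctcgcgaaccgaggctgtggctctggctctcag
Lama2 and Itga11 held 1 E-box each and Itga10 held none. Motifs were searched on both strands, and no overlap between motifs was removed. The E-box letters CANNTG stood in 19 of the 23 member promoters and in 72.3% of all 32851 promoters of the same length. A T-box motif, AGGTGT, stood in 4 of 23, those of Itga3, Itgb6 and Lamb3, against 13.7% of all promoters. Neither a GATA motif, AGATAA, found in 11.2% of all promoters, nor a MEF2 motif, CTANNNNTAG, found in 3.69%, stood in any of the 23 windows. A match is a description of these windows and not a binding site.

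Integrin and laminin genes had a median of 57.5 CPM over the 31 members, against 14 CPM over all 17576 genes tested. These values were not divided by gene length, so they do not compare transcript numbers. All 31 passed the filter on low counts. Itgb6 passed it through 3 of the cocktail groups alone, and Itgb7 through mock cells of day 2 alone. At day 7, AGHMT cells had 13 members higher and 15 lower than mock cells, or 90.3% of the members. Of all genes tested, 76.8% were called, 38.6% higher and 38.1% lower. GHMT cells had 13 members higher and 12 lower (80.6%; all genes, 72.0% with 36.3% higher and 35.6% lower), and GMT cells had 12 higher and 16 lower (90.3%; all genes, 73.0% with 37.1% higher and 36.0% lower). Such shares lie near a background in which most genes were called, so the size of a change says more than its call. A change of at least 2-fold was reached by 17 members in AGHMT, 13 in GHMT and 16 in GMT cells, which is 54.8%, 41.9% and 51.6% of the members, against 33.7%, 29.7% and 30.4% of all genes. The median log2 difference of the members was -0.10 in AGHMT, 0.01 in GHMT and -0.36 in GMT, beside 0.00, 0.00 and 0.01 over all genes, so large rises and large falls stood side by side. At day 2 the calls were 13 higher and 14 lower in AGHMT (87.1%; all genes, 75.4% with 38.0% higher and 37.4% lower), 15 and 13 in GHMT (90.3%; all genes, 68.2% with 34.9% higher and 33.3% lower) and 16 and 11 in GMT cells (87.1%; all genes, 67.1% with 33.9% higher and 33.1% lower). At least 2-fold changes were reached at day 2 by 16 members in AGHMT (51.6%; all genes, 32.1%), 17 in GHMT (54.8%; all genes, 25.7%) and 14 in GMT cells (45.2%; all genes, 24.7%).

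**Figure D1:**
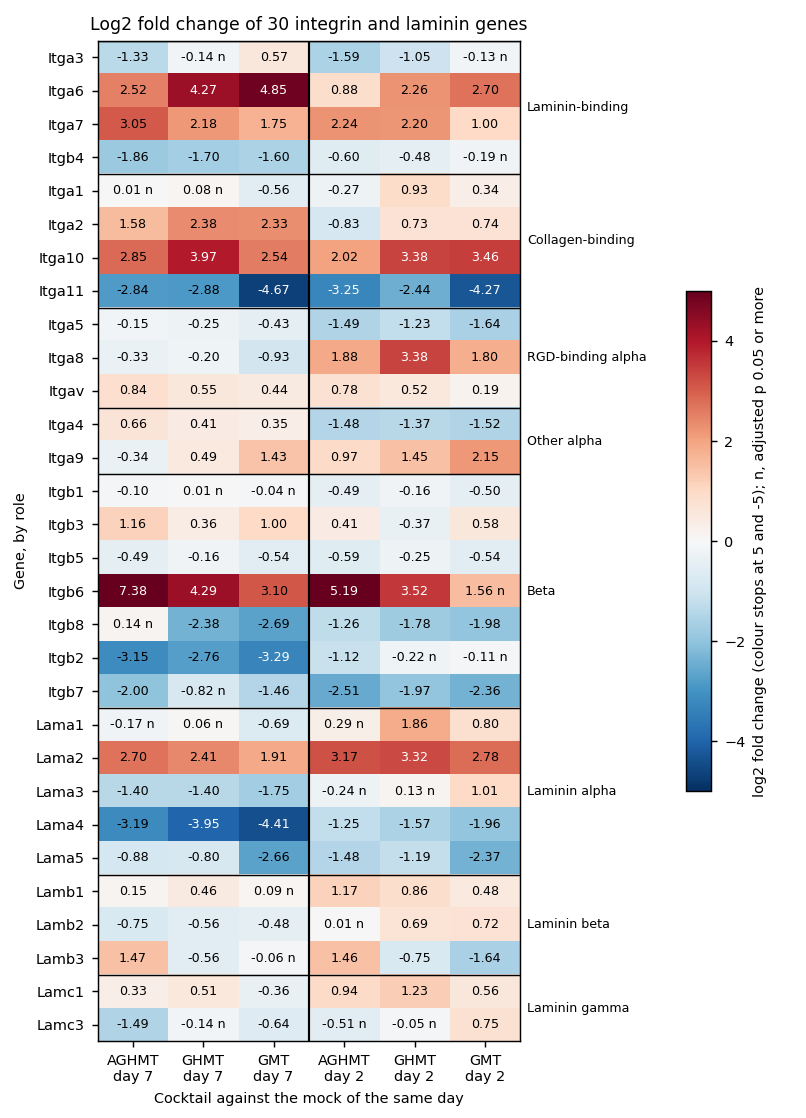
Log2 fold changes of 30 of the genes (rows, by role) in each cocktail against the mock cells of its day (columns, day 7 left of day 2); red is higher and blue lower in the cocktail, and n marks an adjusted p of 0.05 or more. Lama2, Itga7, Itga6 and Itga10 were higher in all 6 columns, and Lama4, Lama5 and Itga11 were lower in all 6; the Itgb6 values rest on 0 to 3 counts per mock library and depend on the prior count.

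The laminin alpha chains changed places. Lama2 (ENSMUSG00000019899, chr10:26980036-27619758, minus strand, GRCm38), the alpha chain of muscle and nerve basement membranes whose loss causes muscular dystrophy in mice and people, rose in all cocktails. At day 7 it stood at 913, 923 and 895 CPM in AGHMT and 822, 662 and 764 CPM in GHMT. GMT libraries had 508, 553 and 520.2 CPM, against 142, 139 and 140.2 CPM in mock libraries. No cocktail library came near a mock library, and the cocktails were ordered AGHMT, GHMT, GMT with no overlap. The log2 difference from mock was 2.70 ± 0.12 (adjusted p = 1.35e-16) in AGHMT, 2.41 ± 0.12 (adjusted p = 1.28e-15) in GHMT and 1.91 ± 0.11 (adjusted p = 1.11e-13) in GMT cells. At day 2 it already stood at 1114, 1092 and 689 CPM in AGHMT and 1123, 1145 and 955 CPM in GHMT. GMT libraries had 747, 748 and 726 CPM, against 105, 108 and 110.3 CPM in mock libraries. The AGHMT library at 689 CPM is the one that stood apart, and the difference of AGHMT from mock at day 2 was 3.17 ± 0.12 (adjusted p = 8.25e-18) with it and 3.36 (adjusted p = 9.72e-27) without it.

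Lama4 (chr10:38965515-39110188), an alpha chain of blood vessels, fat and other mesenchymal tissues, moved the other way. The 3 libraries of each group at day 7 held 60.5, 58.6 and 62.0 CPM in AGHMT and 35.8, 32.9 and 38.6 CPM in GHMT. GMT libraries had 25.5, 25.0 and 26.8 CPM, against 556, 546 and 549 CPM in mock libraries. Every mock library lay far above every cocktail library, and among the cocktails GMT was lowest. On the log2 scale it differed from mock by -3.19 ± 0.10 (adjusted p = 2.14e-19) in AGHMT, -3.95 ± 0.11 (adjusted p = 7.24e-21) in GHMT and -4.41 ± 0.11 (adjusted p = 1.21e-21) in GMT cells. Levels at day 2 were 97.3, 97.6 and 69.3 CPM in AGHMT and 68.8, 77.0 and 65.4 CPM in GHMT. GMT libraries had 56.9, 49.8 and 54.4 CPM, against 181, 222 and 224 CPM in mock libraries. The gap was thus smaller at day 2, when mock cells themselves had less Lama4; between the days mock cells gained 1.4 ± 0.09 (adjusted p = 4.29e-12) on the log2 scale. The 12 markers of endothelial cells, which make Lama4, summed to at most 25.0 CPM in any library. Their sums at day 7 averaged 14.4 CPM in AGHMT, 7.33 in GHMT, 11.5 in GMT and 24.0 in mock cells. The part of these markers in the values of Lama4 was not tested.

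Lama5, the most widespread alpha chain of adult basement membranes, fell in all cocktails. Its levels at day 7 were 66.5, 72.7 and 69.8 CPM in AGHMT and 84.6, 59.7 and 76.5 CPM in GHMT. GMT libraries had 18.1, 18.6 and 24.2 CPM, against 131, 139.6 and 114 CPM in mock libraries. AGHMT and GHMT overlapped and both lay below mock, and GMT lay below all of them. Against mock, the log2 difference was -0.88 ± 0.13 (adjusted p = 1.71e-06) in AGHMT, -0.80 ± 0.13 (adjusted p = 7.11e-06) in GHMT and -2.66 ± 0.15 (adjusted p = 1.57e-14) in GMT cells. At day 2 the means were 53.3 ± 13.0 CPM in AGHMT, 65.2 ± 7.33 in GHMT, 28.7 ± 1.15 in GMT and 149 ± 5.88 in mock cells, again lowest in GMT and highest in mock cells. AGHMT and GHMT did not differ at the threshold (-0.29 ± 0.14, adjusted p = 0.0750). That difference was -0.10 (adjusted p = 0.459) without replicate 3 of AGHMT, and it passed the test without AGHMT replicate 1, AGHMT replicate 2 or GHMT replicate 3 of day 2, each left out alone, at -0.41 to -0.38 (adjusted p = 0.0209 to 0.0375). The remaining alpha chains were low. Lama1, the chain of the early embryo, stayed between 3.80 and 16.6 CPM in all 24 libraries, and its largest difference from mock was in GHMT cells at day 2, at 1.86 ± 0.14 (adjusted p = 7.57e-12). Lama3, the alpha chain of epithelia such as skin, stayed between 0.637 and 3.68 CPM. It fell in all cocktails at day 7, by 1.4 on the log2 scale in AGHMT and GHMT and by 1.75 in GMT.

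To compare different genes, levels were divided by the joint length of all annotated exons of a gene, which can exceed that of a transcript. This length was 16338 bases for Lama2 and 9681 to 12068 for the other alpha chains, so the shares depend on the annotation. Per kilobase of exon, Lama2 made up most laminin alpha chain RNA in cocktail cells and a minor share in mock cells. At day 7 its share was 82.3% ± 0.471 in AGHMT, 81.6% ± 0.571 in GHMT and 87.7% ± 1.32 in GMT cells, against 12.9% ± 0.222 in mock cells. Lama4 held 7.39% ± 0.296, 5.29% ± 0.418 and 5.82% ± 0.321 in those cocktails, against 68.5% ± 1.19 in mock cells. At day 2 Lama2 held 82.3% ± 0.777 in AGHMT, 83.2% ± 0.106 in GHMT and 85.1% ± 0.732 in GMT, against 17.6% ± 0.393 in mock cells. The mock cells of day 2 were the group richest in Lama5, at 34.9% ± 3.01. The summed level of the 5 alpha chains was 67.7 ± 0.778 CPM per kb in AGHMT, 56.3 ± 6.32 in GHMT and 36.8 ± 1.32 in GMT at day 7, against 66.6 ± 1.18 in mock cells. AGHMT and mock cells thus held similar sums at day 7, in different chains. At day 2 the sum was 71.7 ± 17.3 in AGHMT, 79.0 ± 7.55 in GHMT and 53.3 ± 0.770 in GMT, against 37.5 ± 1.68 in mock cells, higher in every cocktail library than in any mock library. In replicate 3 of AGHMT at day 2, where single laminins were low, the Lama2 share was 81.5%, beside 83.0% and 82.4% in the other libraries of its group.

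**Figure D2:**
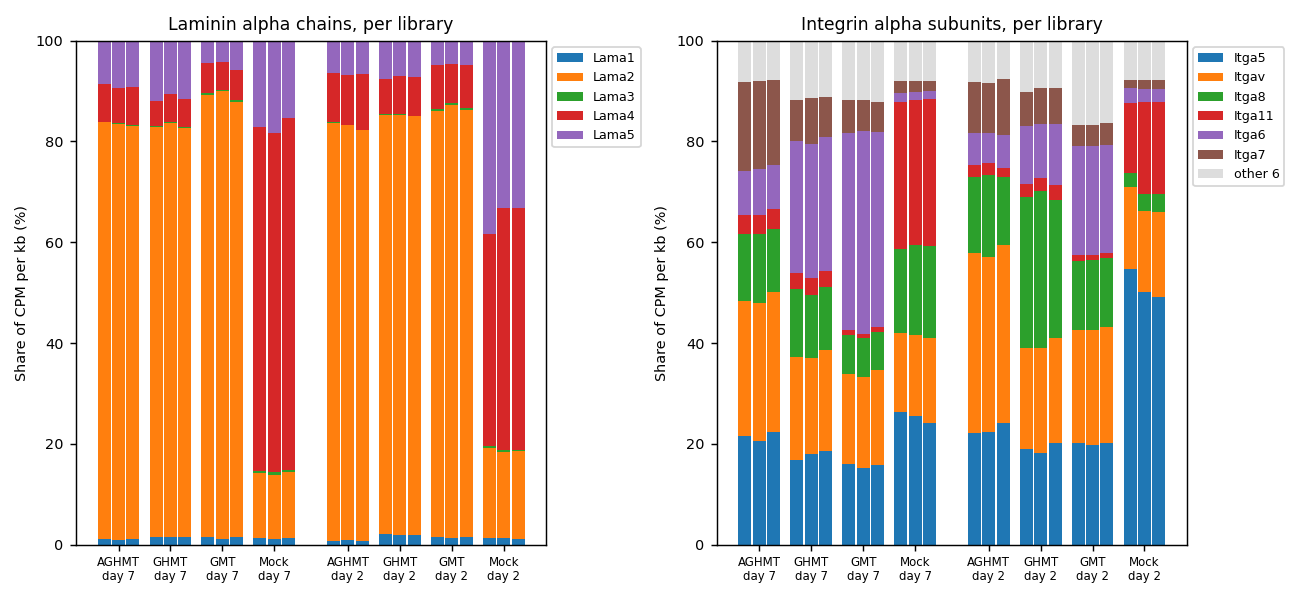
Share of each gene in the summed CPM per kb of exon of the 5 laminin alpha chains (left) and of the 12 integrin alpha subunits (right), one bar per library, day 7 left of day 2. Lama2 fills 81.0% to 89.0% of the laminin alpha bars in cocktail libraries and 12.7% to 18.0% in mock libraries; Itga11 holds a mean of 29.0% of integrin alpha RNA in mock cells of day 7, and 3.81%, 3.30% and 0.948% in AGHMT, GHMT and GMT cells.

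Of the beta and gamma chains with which these alpha chains assemble, Lamb1, Lamb2 and Lamc1 changed less than Lama2 and Lama4 at day 7. Lamb1, a beta chain found in most laminins, averaged 950.1 ± 32.9 CPM in AGHMT, 1178 ± 37.8 in GHMT, 909 ± 39.7 in GMT and 855 ± 19.2 in mock cells at day 7 and 1345 ± 106 CPM in AGHMT, 1089.9 ± 45.2 in GHMT, 837 ± 8.58 in GMT and 599 ± 8.14 in mock cells at day 2. It was called higher in all cocktails at day 2, by 1.17 ± 0.05 in AGHMT, 0.86 ± 0.05 in GHMT and 0.48 ± 0.05 in GMT. At day 7 its differences from mock were at most 0.46 ± 0.05, in GHMT. Lamc1, the gamma chain of nearly all laminins, was higher than mock in AGHMT (0.33 ± 0.10) and GHMT (0.51 ± 0.10) and lower in GMT cells (-0.36 ± 0.10) at day 7, with means of 932 ± 11.3 CPM in AGHMT, 1051 ± 84.7 in GHMT, 577 ± 3.0 in GMT and 740.0 ± 33.3 in mock cells. Lamb2, the beta chain of the neuromuscular junction and the kidney filter, was lower in all cocktails at day 7, by 0.75, 0.56 and 0.48 on the log2 scale in AGHMT, GHMT and GMT. At day 2 Lamb2 was higher than mock in GHMT (0.69 ± 0.06) and GMT (0.72 ± 0.06), while AGHMT differed by 0.01 ± 0.06 (adjusted p = 0.906). Mock cells themselves had more Lamb2 at day 7 than at day 2, by 1.12 ± 0.06.

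Lamb3, a beta chain of the laminin of skin, where it assembles with Lama3, was higher than mock at day 7 in AGHMT (1.47 ± 0.18, adjusted p = 8.43e-08), lower in GHMT (-0.56 ± 0.23, adjusted p = 0.0354) and at -0.06 ± 0.22 (adjusted p = 0.825) in GMT cells. Lamb3 averaged 3.48 ± 0.133 CPM in AGHMT, 0.851 ± 0.200 in GHMT, 1.20 ± 0.185 in GMT and 1.25 ± 0.0646 in mock cells at day 7, so these differences rest on low levels, and the GHMT difference no longer passed the test without GHMT replicate 2, mock replicate 1 or mock replicate 3 of day 7, each left out alone, at -0.55 to -0.37 (adjusted p = 0.0727 to 0.195). The 12 epithelial and mesothelial markers summed to 169 to 188 CPM in AGHMT, 633 to 686 in GHMT, 257 to 276 in GMT and 157 to 179.7 in mock libraries of day 7, and their part in the Lamb3 values was not tested. Lamc3, a gamma chain known from brain and eye, stayed between 0.249 and 1.57 CPM in all libraries.

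Among the laminin receptors, Itga7 and Itga6 rose. Itga7 (chr10:128933818-128958282, plus strand), the muscle receptor for Lama2-containing laminin, stood at day 7 at 341, 338 and 321 CPM in AGHMT and 183, 188 and 175 CPM in GHMT. GMT libraries had 139, 136 and 129.6 CPM, against 43.9, 40.9 and 35.8 CPM in mock libraries. The groups did not overlap, and AGHMT libraries were the highest. The log2 difference from mock was 3.05 ± 0.06 (adjusted p = 3.76e-24) in AGHMT, 2.18 ± 0.06 (adjusted p = 2.42e-21) in GHMT and 1.75 ± 0.06 (adjusted p = 2.03e-19) in GMT cells. At day 2 it stood at 145, 144 and 138 CPM in AGHMT and 139, 143 and 133 CPM in GHMT. GMT libraries had 58.3, 60.9 and 60.4 CPM, against 30.4, 30.2 and 29.4 CPM in mock libraries. At that day AGHMT and GHMT overlapped and GMT lay between them and mock, with log2 differences from mock of 2.24 ± 0.06 (adjusted p = 1.84e-21), 2.20 ± 0.06 (adjusted p = 3.88e-21) and 1.00 ± 0.06 (adjusted p = 4.63e-14) in AGHMT, GHMT and GMT. Itga7 and Lama2 are also known from Schwann cells and nerve, and the 9 Schwann and neural markers summed to 265 to 268 CPM in AGHMT, 244 to 254 in GHMT, 128 to 150.2 in GMT and 121 to 125 in mock libraries of day 7. Calls on single markers of this list went both ways. Of the 8 markers tested, 3 were higher and 3 lower than mock in AGHMT, 3 and 2 in GHMT and 4 and 3 in GMT. Of all genes, 76.8%, 72.0% and 73.0% were called in these comparisons. The part of these markers in the values of Itga7 and Lama2 was not tested.

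Itga6 (chr2:71745616-71858416), a laminin receptor of epithelia and many stem cells that pairs with Itgb1 or Itgb4, was ordered the other way among the cocktails. Library by library, day 7 gave 189, 193 and 189 CPM in AGHMT and 654, 623 and 641 CPM in GHMT. GMT libraries had 943, 997 and 931 CPM, against 34.5, 31.3 and 33.8 CPM in mock libraries. GMT libraries were the highest and AGHMT the lowest of the cocktails, and none overlapped mock or each other. On the log2 scale it differed from mock by 2.52 ± 0.06 (adjusted p = 1.73e-21) in AGHMT, 4.27 ± 0.07 (adjusted p = 1.90e-25) in GHMT and 4.85 ± 0.07 (adjusted p = 3.02e-26) in GMT cells. At day 2 its levels were 102, 95.9 and 88.3 CPM in AGHMT and 255, 239 and 251 CPM in GHMT. GMT libraries had 336, 341 and 334 CPM, against 58.5, 49.8 and 47.3 CPM in mock libraries. The log2 differences at that day were 0.88 ± 0.06 (adjusted p = 1.99e-12) in AGHMT, 2.26 ± 0.06 (adjusted p = 1.47e-20) in GHMT and 2.70 ± 0.06 (adjusted p = 6.11e-22) in GMT cells. Per kb, Itga6 made up 8.87% ± 0.129 of integrin alpha RNA in AGHMT, 26.4% ± 0.231 in GHMT and 39.4% ± 0.772 in GMT, against 1.64% ± 0.0903 in mock cells at day 7. The corresponding shares of Itga7 were 17.3% ± 0.473, 8.41% ± 0.515 and 6.20% ± 0.230, against 2.22% ± 0.207. In AGHMT Itga7 held the larger share of the pair at day 7, and in GHMT and GMT Itga6 did. At day 2 the shares in AGHMT were 10.4% ± 0.660 for Itga7 and 6.27% ± 0.237 for Itga6.

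Itga3, a laminin receptor of epithelia, kidney and lung, had the same order among the cocktails as Itga6. At day 7 it stood at 14.0, 14.0 and 12.4 CPM in AGHMT and 30.7, 30.1 and 31.5 CPM in GHMT. GMT libraries had 50.6, 50.2 and 50.8 CPM, against 35.8, 34.6 and 31.5 CPM in mock libraries. It was lower than mock in AGHMT (-1.33 ± 0.09, adjusted p = 3.75e-13) and higher in GMT (0.57 ± 0.08, adjusted p = 3.64e-07), and GHMT differed from mock by -0.14 ± 0.08 (adjusted p = 0.105). At day 2 the means were 9.08 ± 1.54 CPM in AGHMT, 13.2 ± 1.26 in GHMT, 24.9 ± 0.694 in GMT and 27.3 ± 2.71 in mock cells, and AGHMT (-1.59 ± 0.09, adjusted p = 3.24e-14) and GHMT (-1.05 ± 0.09, adjusted p = 8.24e-11) were lower than mock. Itgb4, the beta chain of the anchoring junctions of skin, was low everywhere, between 1.11 and 5.19 CPM. At day 7 it was lower than mock in AGHMT (-1.86 ± 0.16, adjusted p = 1.13e-10), GHMT (-1.70 ± 0.15, adjusted p = 3.61e-10) and GMT cells (-1.60 ± 0.15, adjusted p = 7.66e-10).

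**Figure D3:**
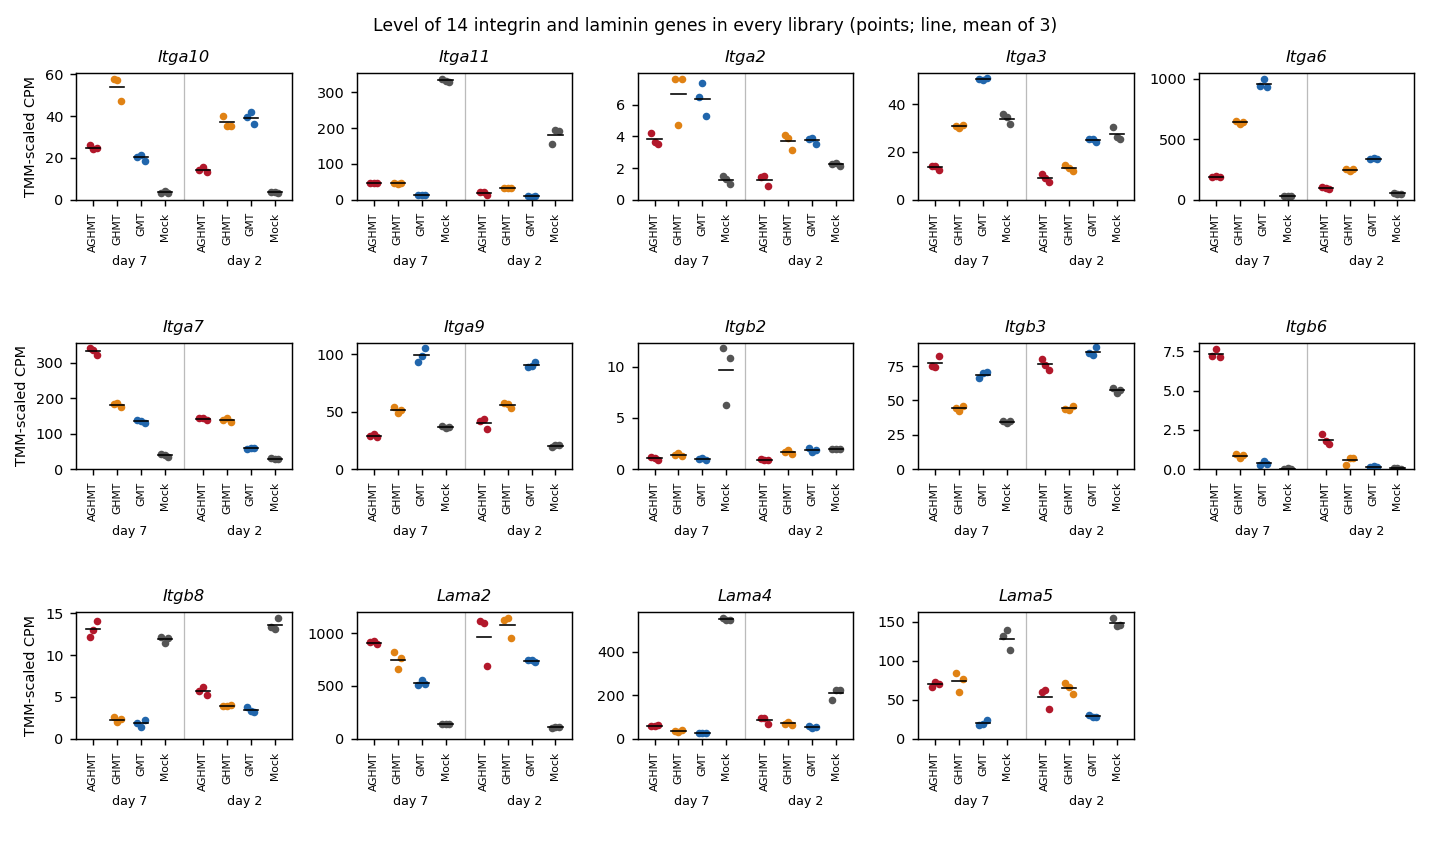
TMM-scaled CPM of 14 integrin and laminin genes, on axes that start at 0, in each of the 24 libraries (points) with the mean of the 3 libraries of a group (line); day 7 is left of day 2 in each panel. Lama2 and Itga7 are lowest in mock cells at both days, Lama4 and Itga11 are highest in mock cells at both days, and Itga6 is highest in GMT and lowest in mock cells.

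The collagen receptors changed in opposite directions. Itga11 (chr9:62677826-62783982), the main receptor of fibroblasts for fibrillar collagen, fell in all cocktails. The 3 libraries of each group at day 7 held 47.1, 45.8 and 46.5 CPM in AGHMT and 45.8, 43.7 and 46.4 CPM in GHMT. GMT libraries had 13.7, 11.8 and 13.7 CPM, against 337, 333 and 331 CPM in mock libraries. AGHMT and GHMT overlapped, GMT was lower than both, and mock was far above all of them. Against mock, the log2 difference was -2.84 ± 0.10 (adjusted p = 9.97e-19) in AGHMT, -2.88 ± 0.10 (adjusted p = 8.89e-19) in GHMT and -4.67 ± 0.11 (adjusted p = 4.29e-22) in GMT cells. Library by library, day 2 gave 21.7, 21.4 and 14.2 CPM in AGHMT and 33.4, 32.8 and 33.9 CPM in GHMT. GMT libraries had 10.1, 8.77 and 9.23 CPM, against 155, 194 and 193 CPM in mock libraries. The fall was thus present at that day, with log2 differences of -3.25 ± 0.10 (adjusted p = 2.40e-19), -2.44 ± 0.10 (adjusted p = 4.55e-17) and -4.27 ± 0.11 (adjusted p = 6.58e-21) in AGHMT, GHMT and GMT. Without replicate 3 of AGHMT at day 2, the AGHMT value was -3.06 (adjusted p = 3.18e-24). The fibroblast markers, which include the collagens that Itga11 binds, were lower in the same comparisons at day 7 (10 of 10 in each cocktail, where 38.1%, 35.6% and 36.0% of all genes were lower in AGHMT, GHMT and GMT); their part in the values of Itga11 was not tested.

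Itga10 (chr3:96645584-96664519), a collagen receptor known mainly from cartilage, rose from a low level. Its levels at day 7 were 26.0, 24.2 and 24.8 CPM in AGHMT and 57.8, 57.3 and 47.5 CPM in GHMT. GMT libraries had 20.5, 21.5 and 18.7 CPM, against 3.19, 4.16 and 3.04 CPM in mock libraries. GHMT libraries were the highest, and mock libraries lay below every cocktail library. The log2 difference from mock was 2.85 ± 0.11 (adjusted p = 8.91e-18) in AGHMT, 3.97 ± 0.10 (adjusted p = 4.49e-21) in GHMT and 2.54 ± 0.11 (adjusted p = 1.33e-16) in GMT cells. Its levels at day 2 were 14.1, 15.6 and 13.5 CPM in AGHMT and 40.1, 35.5 and 35.3 CPM in GHMT. GMT libraries had 39.7, 41.8 and 36.2 CPM, against 3.76, 3.66 and 3.23 CPM in mock libraries. GHMT and GMT overlapped at that day. Itga2, a receptor for collagen and laminin known from platelets and epithelia, was low, and at day 7 stood at 4.22, 3.66 and 3.54 CPM in AGHMT and 7.59, 4.70 and 7.64 CPM in GHMT. GMT libraries had 6.47, 7.40 and 5.29 CPM, against 1.48, 1.30 and 1.01 CPM in mock libraries. It was higher than mock in all cocktails at that day, by 1.58 ± 0.21 (adjusted p = 3.59e-07) in AGHMT, 2.38 ± 0.20 (adjusted p = 6.43e-11) in GHMT and 2.33 ± 0.20 (adjusted p = 9.67e-11) in GMT. At day 2 Itga2 averaged 1.27 ± 0.334 CPM in AGHMT, 3.71 ± 0.512 in GHMT, 3.75 ± 0.213 in GMT and 2.24 ± 0.106 in mock cells, and AGHMT was then lower than mock, at -0.83 ± 0.23 (adjusted p = 0.00237) with replicate 3 and -0.61 (adjusted p = 0.0239) without it. Itga1, a receptor for basement membrane and fibrillar collagen in smooth muscle and fibroblasts, averaged 76.6 ± 0.791 CPM in AGHMT, 80.1 ± 8.61 in GHMT, 51.6 ± 0.190 in GMT and 75.8 ± 2.73 in mock cells at day 7. It was lower than mock in GMT (-0.56 ± 0.08, adjusted p = 1.08e-06), while AGHMT and GHMT differed by 0.01 ± 0.08 (adjusted p = 0.878) and 0.08 ± 0.08 (adjusted p = 0.379).

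Other receptors bind the RGD motif of fibronectin, vitronectin and related ligands. Itga5, the alpha chain of the classical fibronectin receptor, averaged 252 ± 10.1 CPM in AGHMT, 235 ± 10.1 in GHMT, 207 ± 2.30 in GMT and 280.1 ± 15.1 in mock cells at day 7 and 189.8 ± 8.23 CPM in AGHMT, 227 ± 5.92 in GHMT, 171 ± 0.589 in GMT and 534 ± 48.9 in mock cells at day 2. Its difference from mock was small at day 7, at -0.15 ± 0.05, -0.25 ± 0.05 and -0.43 ± 0.05 in AGHMT, GHMT and GMT, and larger at day 2, at -1.49 ± 0.05 (adjusted p = 4.39e-18), -1.23 ± 0.05 (adjusted p = 2.73e-16) and -1.64 ± 0.06 (adjusted p = 1.03e-18). The AGHMT difference at day 7 no longer passed the test without AGHMT replicate 2 or mock replicate 1 of that day, at -0.13 to -0.12 (adjusted p = 0.0563 to 0.0836). Mock cells had less Itga5 at day 7 than at day 2 (-0.93 ± 0.05, adjusted p = 2.68e-13), and per kb Itga5 was 25.3% ± 1.12 of integrin alpha RNA in mock cells at day 7 and 51.3% ± 3.04 at day 2. Itgav, the alpha chain shared by the vitronectin and latent TGF-beta receptors, was higher than mock in every cocktail at both days, by at most 0.84 ± 0.05 in AGHMT at day 7, with means of 697 ± 10.4 CPM in AGHMT, 572 ± 43.1 in GHMT, 529 ± 13.5 in GMT and 390.1 ± 12.8 in mock cells at that day.

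Itga8, an RGD receptor of smooth muscle and kidney mesenchyme, reversed between the days. At day 7 it averaged 231 ± 11.8 CPM in AGHMT, 252 ± 17.2 in GHMT, 152 ± 4.65 in GMT and 290.4 ± 9.45 in mock cells, and at day 2 187 ± 32.0 CPM in AGHMT, 527 ± 56.3 in GHMT, 176 ± 4.62 in GMT and 50.5 ± 4.21 in mock cells. It was lower than mock at day 7, at -0.33 ± 0.09 (adjusted p = 0.00171) in AGHMT, -0.20 ± 0.09 (adjusted p = 0.0426) in GHMT and -0.93 ± 0.09 (adjusted p = 1.01e-09) in GMT, and higher at day 2, by 1.88 ± 0.09 (adjusted p = 2.33e-15) in AGHMT, 3.38 ± 0.10 (adjusted p = 4.42e-20) in GHMT and 1.80 ± 0.09 (adjusted p = 8.26e-15) in GMT. The GHMT difference at day 7 no longer passed the test without GHMT replicate 2, GHMT replicate 3, mock replicate 2 or mock replicate 3 of that day, each left out alone, at -0.19 to -0.17 (adjusted p = 0.0953 to 0.140). Mock cells had more Itga8 at day 7 than at day 2 by 2.52 ± 0.10 (adjusted p = 7.29e-17). Its exons overlap those of E030013I19Rik on the other strand, which reached 11.1 CPM in its highest group, and without a stated strand setting reads of that gene and Itga8 cannot be told apart. Other members whose exons overlap another gene, such as Itga7 and Mettl7b or Itga4 and Cerkl, had partners below 0.5 CPM wherever the partner had a value.

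The beta partners of Itgav each had a pattern of their own. Itgb3, which with Itgav forms the vitronectin receptor, stood at day 7 at 75.3, 74.4 and 82.1 CPM in AGHMT and 44.5, 42.3 and 46.2 CPM in GHMT. GMT libraries had 66.2, 69.7 and 70.5 CPM, against 34.8, 33.5 and 35.1 CPM in mock libraries. It was higher than mock in all cocktails, by 1.16 ± 0.05 (adjusted p = 1.71e-16) in AGHMT, 0.36 ± 0.05 (adjusted p = 1.07e-06) in GHMT and 1.00 ± 0.05 (adjusted p = 4.73e-15) in GMT, and GHMT was the lowest cocktail with no overlap. At day 2 it averaged 76.2 ± 4.05 CPM in AGHMT, 44.4 ± 1.67 in GHMT, 85.5 ± 3.32 in GMT and 57.3 ± 1.79 in mock cells, and GHMT lay below mock (-0.37 ± 0.05, adjusted p = 6.90e-07). Itgb5, another vitronectin receptor chain, was lower than mock in every cocktail at both days, with the largest difference, -0.59 ± 0.04, in AGHMT at day 2, and ranged between 231 and 399 CPM. Itgb8, which with Itgav releases TGF-beta from its latent complex, stood at day 7 at 12.1, 13.0 and 14.0 CPM in AGHMT and 2.55, 1.96 and 2.36 CPM in GHMT. GMT libraries had 1.90, 1.37 and 2.23 CPM, against 12.1, 11.5 and 12.1 CPM in mock libraries. AGHMT libraries lay just above mock libraries, a difference that did not pass the test (0.14 ± 0.09, adjusted p = 0.155), while GHMT (-2.38 ± 0.11, adjusted p = 6.56e-16) and GMT (-2.69 ± 0.11, adjusted p = 9.44e-17) lay far below both. At day 2 Itgb8 averaged 5.71 ± 0.471 CPM in AGHMT, 3.96 ± 0.0927 in GHMT, 3.43 ± 0.340 in GMT and 13.6 ± 0.722 in mock cells and was lower than mock in all cocktails, by 1.26 in AGHMT, 1.78 in GHMT and 1.98 in GMT on the log2 scale.

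Itgb6, the epithelial chain that with Itgav also releases TGF-beta, was nearly absent from mock cells. At day 7 it had 230, 235 and 241 counts in the AGHMT libraries, 35, 27 and 27 in GHMT, 8, 19 and 13 in GMT and 1, 2 and 1 in mock. This is 7.36 ± 0.273 CPM in AGHMT, 0.867 ± 0.124 CPM in GHMT and 0.376 ± 0.154 CPM in GMT, with no overlap between groups. The ratio of summed counts, scaled for depth, was 181 for AGHMT over mock, with a 95% interval of 70.4 to 666 that covers counting error only. It was 21.3 for GHMT (8.03 to 79.9) and 9.3 for GMT (3.36 to 35.8). Counts at day 2 were 78, 55 and 57 in AGHMT, 9, 22 and 22 in GHMT, 5, 7 and 4 in GMT and 2, 3 and 0 in mock, and GMT did not pass the test (adjusted p = 0.0545). AGHMT exceeded GHMT at day 7 by 3.08 ± 0.18 (adjusted p = 3.64e-13) and at day 2 by 1.68 ± 0.24 (adjusted p = 2.67e-06). Itgb6 passed the filter only through the groups where it was highest, and the GHMT counts at day 2 were low, so these values are descriptive.

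Itgb1, the partner of most alpha chains named here, was the member with the highest CPM in every group. It averaged 2162 ± 61.2 CPM in AGHMT, 2336 ± 55.6 in GHMT, 2249.9 ± 41.6 in GMT and 2317 ± 54.9 in mock cells at day 7, where its largest difference from mock was -0.10 ± 0.04 (adjusted p = 0.0127), in AGHMT, which no longer passed the test without AGHMT replicate 3, at -0.08 (adjusted p = 0.0707). At day 2 it averaged 1723 ± 29.8 CPM in AGHMT, 2177 ± 19.7 in GHMT, 1721 ± 26.4 in GMT and 2428 ± 31.5 in mock cells and was lower than mock by 0.49 in AGHMT, 0.16 in GHMT and 0.50 in GMT on the log2 scale. Per kb, Itgb1 made up 85.1% ± 0.520 of integrin beta RNA in AGHMT, 84.6% ± 0.378 in GHMT, 86.4% ± 0.135 in GMT and 82.8% ± 0.919 in mock cells at day 7.

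Itga9, a receptor for tenascin-C and other ligands known from smooth muscle and lymphatic vessels, had the order GMT, GHMT, AGHMT that Itga6 and Itga3 had. Library by library, day 7 gave 29.3, 30.2 and 28.0 CPM in AGHMT and 54.5, 49.3 and 51.5 CPM in GHMT. GMT libraries had 93.3, 98.6 and 106 CPM, against 37.5, 36.3 and 36.8 CPM in mock libraries. It was higher than mock in GMT (1.43 ± 0.06, adjusted p = 2.14e-16) and GHMT (0.49 ± 0.06, adjusted p = 2.42e-07) and lower in AGHMT (-0.34 ± 0.07, adjusted p = 6.58e-05). At day 2 its means were 40.1 ± 4.63 CPM in AGHMT, 56.1 ± 2.39 in GHMT, 90.9 ± 2.16 in GMT and 20.5 ± 0.868 in mock cells, and all cocktails were higher than mock. Itga4, a receptor for fibronectin and VCAM-1 that can pair with Itgb1 or Itgb7, reversed in the direction opposite to Itga8. It averaged 46.6 ± 0.307 CPM in AGHMT, 39.2 ± 4.26 in GHMT, 37.5 ± 1.91 in GMT and 29.5 ± 2.85 in mock cells at day 7 and 30.4 ± 7.77 CPM in AGHMT, 32.8 ± 5.08 in GHMT, 29.5 ± 1.53 in GMT and 84.7 ± 2.67 in mock cells at day 2, being higher than mock by 0.35 to 0.66 at day 7 and lower by 1.37 to 1.52 at day 2 on the log2 scale. The smallest, that of GMT at day 7, no longer passed the test without mock replicate 1 or 2 of that day, at 0.29 to 0.32 (adjusted p = 0.0543 to 0.0727). Mock cells had less Itga4 at day 7 than at day 2, at -1.52 ± 0.12 (adjusted p = 1.10e-10).

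Itgb2, the beta chain of white blood cells, was lower in all cocktails than in mock cells at day 7. It stood at 1.20, 1.14 and 0.922 CPM in AGHMT and 1.34, 1.63 and 1.25 CPM in GHMT. GMT libraries had 0.949, 1.14 and 0.860 CPM, against 11.8, 6.27 and 10.9 CPM in mock libraries. On the log2 scale it differed from mock by -3.15 ± 0.19 (adjusted p = 1.44e-13) in AGHMT, -2.76 ± 0.18 (adjusted p = 6.67e-13) in GHMT and -3.29 ± 0.19 (adjusted p = 6.16e-14) in GMT cells. The 17 macrophage markers moved with it, summing to 53.5 to 75.2 CPM in AGHMT, 76.1 to 80.6 in GHMT and 70.9 to 84.7 in GMT, against 459.6 to 671 CPM in mock libraries of day 7. Of these markers 17 were lower in AGHMT, 17 in GHMT and 16 in GMT at day 7. Of all genes, 38.1%, 35.6% and 36.0% were lower in these comparisons. None of the markers was at 0 in any group, and their part in the values of Itgb2 was not tested. At day 2 mock libraries had 75.6 to 78.4 CPM of these markers, and the means were 22.9 in AGHMT, 51.1 in GHMT and 66.9 in GMT. Itgb2 averaged 0.911 ± 0.0662 CPM in AGHMT, 1.70 ± 0.212 in GHMT, 1.84 ± 0.203 in GMT and 1.99 ± 0.0364 in mock cells at that day. Only AGHMT was called lower than mock in Itgb2 then, at -1.12 ± 0.25 (adjusted p = 0.000242). Itgb7, the other white blood cell chain, stayed between 0 and 1.02 CPM in all libraries.

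The step that separates GHMT from GMT is the addition of Hand2, a transcription factor of the heart and limb. At day 7 GHMT cells had 16 members higher and 4 lower than GMT cells, which is 64.5% of the members, against 37.5% of all genes called, 18.7% higher and 18.8% lower. At day 2 the numbers were 17 and 6 (74.2%; all genes, 44.8% with 23.1% higher and 21.7% lower). All members that differed at least 2-fold were higher in GHMT, 5 at day 7 and 7 at day 2, that is 16.1% and 22.6% of the members. Of all genes, 8.12% differed as much at day 7 (4.98% higher and 3.14% lower) and 9.79% at day 2 (5.31% higher and 4.48% lower). The median log2 difference of the members was 0.37 at day 7 and 0.34 at day 2, beside 0.00 over all genes at both days. Lama5 had the largest difference at day 7, at 1.85 ± 0.14 (adjusted p = 9.31e-11), and Itga11 followed at 1.79 ± 0.11 (adjusted p = 5.90e-13). At day 2 those differences were 1.18 ± 0.14 (adjusted p = 1.43e-07) and 1.83 ± 0.11 (adjusted p = 9.59e-13). The chains Lama2 (0.51 ± 0.11), Lamc1 (0.87 ± 0.10) and Lamb1 (0.37 ± 0.05) and the receptor Itga7 (0.43 ± 0.05) were all higher in GHMT at day 7. The lower ones at day 7 were Itga3 (-0.72 ± 0.08), Itga6 (-0.58 ± 0.06), Itga9 (-0.94 ± 0.06) and Itgb3 (-0.64 ± 0.05).

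The step that separates AGHMT from GHMT is the addition of Akt1, a kinase of growth and survival signalling. At day 7 AGHMT cells had 9 members higher and 10 lower than GHMT cells (61.3%; all genes, 48.7% with 25.0% higher and 23.6% lower), and at day 2 they had 8 higher and 15 lower (74.2%; all genes, 52.7% with 25.7% higher and 27.0% lower). At least 2-fold differences were reached by 7 members at day 7 (22.6%; all genes, 8.88% with 5.91% higher and 2.97% lower) and 8 at day 2 (25.8%; all genes, 10.7% with 5.30% higher and 5.43% lower). At day 7 the higher ones were Itgb6, Itgb8 (2.52 ± 0.11, adjusted p = 1.36e-15) and Lamb3 (2.03 ± 0.20, adjusted p = 3.53e-09). Itgb6 passed the filter only through cocktail groups where it was highest, so its place among them is descriptive. The lower ones at day 7 were Itga6 (-1.75 ± 0.06, adjusted p = 1.34e-17), Itga3 (-1.19 ± 0.09, adjusted p = 2.03e-11), Itga10 (-1.12 ± 0.08, adjusted p = 2.33e-11) and Lamc3, a chain below 2 CPM. The muscle pair was also higher in AGHMT at day 7, Itga7 by 0.87 ± 0.05 (adjusted p = 5.00e-13) and Lama2 by 0.28 ± 0.11 (adjusted p = 0.0370). The Lama2 difference no longer passed the test when any AGHMT library or replicate 2 or 3 of GHMT at day 7 was left out, at 0.20 to 0.29 (adjusted p = 0.0622 to 0.187). At day 2 neither differed at the threshold, Itga7 at 0.04 ± 0.05 (adjusted p = 0.589) and Lama2 at -0.15 ± 0.11 (adjusted p = 0.249). Without replicate 3 of AGHMT at day 2, the Lama2 difference was 0.04 (adjusted p = 0.640). Lamc1 in this comparison at day 2 was at -0.29 ± 0.10 (adjusted p = 0.0159) with that library and was no longer called without it, at -0.11 (adjusted p = 0.100). Its call was also lost without replicate 1 or 2 of GHMT at day 2, so that the values over these 3 libraries, each left out alone, were -0.25 to -0.11 (adjusted p = 0.0657 to 0.100).

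The effects of the cocktails also differed between the days. Tested as the difference from mock at day 7 minus that at day 2, the effect was not the same at day 7 as at day 2 for 24 members in AGHMT (77.4%; all genes, 50.9%), 23 in GHMT (74.2%; all genes, 49.3%) and 27 in GMT cells (87.1%; all genes, 49.5%). The mock cells themselves had 16 members higher and 7 lower at day 7 than at day 2 (74.2%; all genes, 55.5% with 29.7% higher and 25.8% lower), so each such difference also holds the change of mock cells. At least 2-fold changes between the days in mock cells numbered 9 (29.0%; all genes, 13.8%). Of these 9, 7 were gains, among them Itga8, Itgb2 (2.28 ± 0.17, adjusted p = 2.99e-11), Lama4 and Lamb2, and 2 were losses, among them Itga4. Below 2-fold, mock cells also gained Itga11 (0.89 ± 0.09, adjusted p = 7.93e-09) and lost Itga5 and Itgb3 (-0.73 ± 0.05, adjusted p = 1.03e-11). Itga6 rose more at day 7 than at day 2, with a difference of effects of 1.64 ± 0.09 (adjusted p = 5.19e-14) in AGHMT, 2.01 ± 0.09 (adjusted p = 1.09e-15) in GHMT and 2.15 ± 0.09 (adjusted p = 3.96e-16) in GMT. Lama4 fell further at day 7, with differences of effects of -1.94 ± 0.14, -2.38 ± 0.14 and -2.46 ± 0.14 in AGHMT, GHMT and GMT. Lama2 went the other way and stood further above mock at day 2, with differences of effects of -0.47 ± 0.16, -0.91 ± 0.16 and -0.88 ± 0.16 in AGHMT, GHMT and GMT. That of AGHMT no longer passed the test without AGHMT replicate 1 or 2 of day 2, at -0.37 to -0.36 (adjusted p = 0.0524 to 0.0573), and was -0.67 (adjusted p = 1.73e-07) without replicate 3. The effect on Itga7 was larger at day 7 in AGHMT (0.81 ± 0.08, adjusted p = 2.85e-09) and GMT (0.75 ± 0.08, adjusted p = 1.52e-08), and in GHMT the difference was -0.02 ± 0.08 (adjusted p = 0.827). Without replicate 3 of AGHMT at day 2, the AGHMT differences of effects for Itga1 and Itga11 no longer passed the test, at 0.15 (adjusted p = 0.174) and 0.22 (adjusted p = 0.0529), against 0.28 ± 0.12 (adjusted p = 0.0479) and 0.40 ± 0.14 (adjusted p = 0.0168) with it. Itga1 in that test was also lost without each of the AGHMT libraries of day 7 and each of the 6 mock libraries, and Itga11 without mock replicate 2 of day 2.

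**Figure D4:**
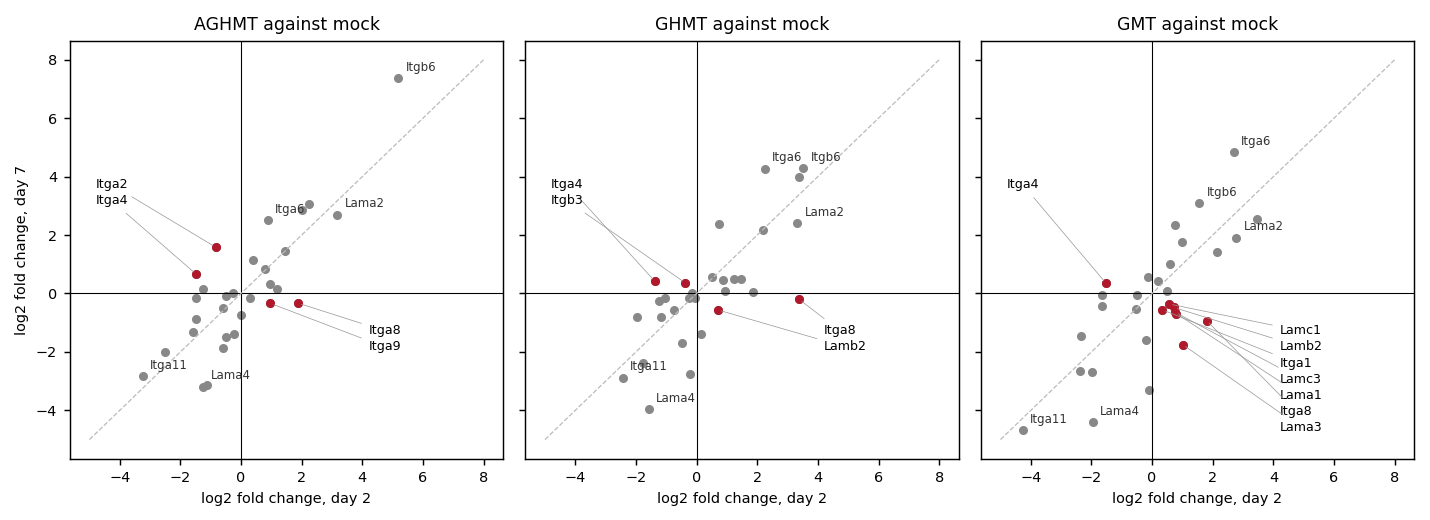
Log2 fold change against mock at day 7 (vertical axis) and at day 2 (horizontal axis) for 30 of the genes in AGHMT, GHMT and GMT cells; points on the dashed line have equal changes at both days. Red points, named at the ends of lines, are genes called in opposite directions at the days whose effects differ by test: 4 in AGHMT, 4 in GHMT and 8 in GMT.

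The molecules that work with these receptors were read from gene lists. The dystrophin-glycoprotein complex, the other muscle receptor for Lama2, had 13 of 19 genes tested higher and 5 lower in AGHMT than in mock cells at day 7, with a median log2 difference of 0.75, beside 0.00 over all genes. The counts were 12 and 5 in GHMT and 12 and 5 in GMT cells, with medians of 0.30 and 0.39. Over all genes, 76.8% were called in AGHMT, 72.0% in GHMT and 73.0% in GMT at day 7, split nearly evenly between higher and lower. Sgca, a sarcoglycan of striated muscle, averaged 29.1 ± 1.70 CPM in AGHMT, 11.6 ± 1.05 in GHMT, 4.40 ± 0.148 in GMT and 0.225 ± 0.0855 in mock cells at day 7. Sgcb, a sarcoglycan made in many tissues, averaged 229.5 ± 5.46 CPM in AGHMT, 233 ± 9.60 in GHMT, 193 ± 5.98 in GMT and 51.2 ± 0.629 in mock cells. Dtna, which encodes dystrobrevin, a partner of dystrophin, averaged 170.3 ± 2.65 CPM in AGHMT, 150.1 ± 9.82 in GHMT, 156 ± 3.58 in GMT and 11.7 ± 0.452 in mock cells. The partners of laminin in the basement membrane had 10 of 16 genes higher and 4 lower in AGHMT, 11 and 4 in GHMT and 8 and 6 in GMT at day 7, with medians of 0.81, 1.00 and 0.54 (all genes called, 76.8%, 72.0% and 73.0%). Nid2, a nidogen that links laminin to collagen IV, rose by 2.75 ± 0.08 (adjusted p = 1.51e-20) in AGHMT, and the collagen IV chains Col4a5 and Col4a6 rose by 1.44 ± 0.06 (adjusted p = 7.01e-17) and 2.44 ± 0.09 (adjusted p = 2.03e-18). Sparc, a collagen-binding protein of many matrices, was lower, at -0.89 ± 0.04 (adjusted p = 9.70e-16).

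Of the adaptors that bind integrin tails, 10 of 24 were higher and 9 lower in AGHMT than in mock cells at day 7, with a median of 0.00, a share called near that of all genes (76.8%). In GHMT 13 were higher and 6 lower, with a median of 0.37 (all genes, 72.0% called), and in GMT 13 and 8, with a median of 0.25 (all genes, 73.0% called). Itgb1bp2, also called melusin, a muscle protein that binds the tail of Itgb1, averaged 39.2 ± 2.61 CPM in AGHMT, 12.7 ± 0.981 in GHMT, 4.63 ± 0.322 in GMT and 0.418 ± 0.0810 in mock cells at day 7. Lims2 and Parvb, parts of the complex that joins integrins to actin through integrin-linked kinase, were higher in AGHMT by 2.26 ± 0.06 (adjusted p = 2.29e-21) and 2.34 ± 0.06 (adjusted p = 4.38e-21), and Tns2, a tensin, was lower, at -1.55 ± 0.07 (adjusted p = 7.17e-17). The integrin ligands other than collagens and laminins had 3 of 14 genes higher and 11 lower in AGHMT, 6 and 7 in GHMT and 5 and 9 in GMT at day 7, with medians of -0.79, -0.35 and -0.96 (all genes called, 76.8%, 72.0% and 73.0%). Postn (-4.59 ± 0.10, adjusted p = 4.32e-23), Fbn1 (-3.37 ± 0.12, adjusted p = 1.19e-18) and Edil3 (-3.21 ± 0.10, adjusted p = 7.31e-20), all ligands of Itgav integrins, were lower in AGHMT, and Npnt, the ligand of Itga8, was higher (1.65 ± 0.07, adjusted p = 1.03e-16).

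Of 6 alpha chains outside the symbol rule, found on white blood cells and platelets, 5 were tested, and 2 were higher and 3 lower in AGHMT than in mock cells at day 7 (all genes called, 76.8%). Itgam, the macrophage partner of Itgb2, averaged 0.798 ± 0.228 CPM in AGHMT, 0.894 ± 0.352 in GHMT, 0.589 ± 0.155 in GMT and 13.0 ± 3.11 in mock cells at day 7 and so was low where Itgb2 and the macrophage markers were low. Itgax, another partner of Itgb2 known from dendritic cells, was higher than mock in AGHMT at day 7 (adjusted p = 1.39e-15) and at day 2 (adjusted p = 5.88e-19). It had 177, 142 and 167 counts in AGHMT, 72, 62 and 36 in GHMT, 15, 18 and 14 in GMT and 3, 1 and 2 in mock libraries at day 7. The Itgax counts at day 2 were 468, 341 and 511 in AGHMT, 122, 100 and 111 in GHMT, 18, 20 and 9 in GMT and 2, 5 and 1 in mock libraries. With 1 to 5 counts per mock library, Itgax passed the filter only through cocktail groups, so its values are descriptive. The AGHMT libraries of day 2, which were highest in Itgax, were lowest in the macrophage markers, at 20.0 to 24.7 CPM. The part of macrophages in the Itgax values was not tested. Itga2b, the platelet chain, was lower in AGHMT at day 7, at -1.41 ± 0.13 (adjusted p = 4.84e-10).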

How the data were processed

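Total RNA from MEFs was sequenced in 24 libraries, and the authors deposited unnormalized counts per gene as whole numbers (47967 genes; 13946 stood at 0 throughout). A second deposited table holds log2 CPM with values under 1 CPM set to 0, which matched the counts to within 0.00603 and was not used further. Trim Galore 0.4.1, HISAT2 2.0.1, featureCounts 1.4.6, DESeq2 1.6.3 and the build GRCm38 are named per the submitters' processing notes. No source used here gives the annotation release or the strand setting. Groups and replicate numbers came from the labels. Library totals were 29345957 to 37495178 counts, which limits counting error to small values except for genes at a few counts per library.

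The counts were fitted with edgeR 4.0.16 in R 4.3.3 (quasi-likelihood F test, TMM factors, filterByExpr, 1 mean per group over all 24 libraries, 16 residual degrees of freedom). This left 17576 genes, over which p-values were adjusted by the Benjamini-Hochberg method. Tests were two-sided and called below 0.05. The common biological coefficient of variation was 5.55%. Exonic lengths and coordinates came from GENCODE M21 (GRCm38), which holds all 31 members, and promoter sequences from RefSeq (GRCm38.p6). Values of every library are printed for members of at least 5 CPM in some group that changed at least 2-fold against mock at day 7 under some cocktail, and for Itga7 and Lama2; up to 4 genes are named per list, those with the smallest adjusted p in AGHMT at day 7 among genes of at least 5 CPM in some group. The members, gene lists and marker lists were chosen with earlier results of these data known. The fit was tested on simulated data. Replicates were compared: no pair of libraries of a group agreed within sampling noise, with at least 1.51 times the chi-square expected from counting alone. Alternatives were other size factors, no filter, a replicate block, the compared groups alone, DESeq2 1.42.0 and leaving out each library. A few results are not reported here, though their genes stay in the counts over members and lists.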

Additional observations from a re-analysis of the deposited data

Results flagged for a closer look

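The tests of the difference between the days singled out 24 members in AGHMT, 23 in GHMT and 27 in GMT whose difference from mock was not the same at day 7 as at day 2. Among these, 4 in AGHMT, 4 in GHMT and 9 in GMT were called in opposite directions at the days. Values are the log2 difference from mock at day 7 minus that at day 2, so a negative value means a lower effect at day 7.

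In AGHMT these were Itga2 (2.41), Itga4 (2.14), Itga8 (-2.21) and Itga9 (-1.31). In GHMT they were Itga4 (1.78), Itga8 (-3.58), Itgb3 (0.73) and Lamb2 (-1.25). In GMT 8 of them were Itga1 (-0.90), Itga4 (1.87), Itga8 (-2.73), Lama1 (-1.49), Lama3 (-2.77), Lamb2 (-1.20), Lamc1 (-0.92) and Lamc3 (-1.38).

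Itga4 and Itga8 appear in all 3 cocktails, which share the mock libraries of each day. In those mock libraries Itga8 was higher at day 7 than at day 2 by 2.52 ± 0.10 and Itga4 lower by 1.52 on the log2 scale. Within the cocktails, Itga8 averaged 231 ± 11.8 CPM at day 7 and 187 ± 32.0 CPM at day 2 in AGHMT, 252 ± 17.2 and 527 ± 56.3 CPM in GHMT, and 152 ± 4.65 and 176 ± 4.62 CPM in GMT. Lama3, Lama1 and Lamc3 are low genes, under 20 CPM in all libraries. No group had more than 3 libraries, so no single library was tested as an outlier.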

How the results depend on the processing

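Of the counts of members called, none moved by more than 1.5 times under other size factors, without the filter on low counts, in fits of the compared groups alone, in DESeq2 or with a library left out. Leaving out each library in turn gave 27 to 28 members called in AGHMT against mock at day 7 (28 with all libraries), 23 to 25 in GHMT (25) and 26 to 28 in GMT (28). At day 2 it gave 27 each time in AGHMT (27), 26 to 28 in GHMT (28) and 27 to 28 in GMT (27). Between GHMT and GMT it gave 19 to 21 at day 7 (20) and 22 to 23 at day 2 (23), and between AGHMT and GHMT 17 to 19 at day 7 (19) and 21 to 24 at day 2 (23). Of 987 alternative values for the 90 differences from mock of the 15 members that met the rule for printing every library (each of the 6 comparisons with mock), 984 kept their direction and their side of the threshold, none reversed, and 3 passed it newly: Itga3 in GHMT at day 7 without mock replicate 3 of that day (-0.20, adjusted p = 0.0446), and Itgb6 in GMT at day 2 without the filter (1.59, adjusted p = 0.0420) and without mock replicate 2 of that day (2.19, adjusted p = 0.0384). The cause was not tested. Against mock, calls of members outside these 15, such as Itga4, Itga5, Itga8 and Itgb1, were lost in some fits without 1 library. The 15 were mostly chosen by their changes against mock at day 7 in these data, so their stability was partly set in advance. In comparisons between cocktails and between days, calls of these members also changed when a library was left out. Besides the cases in the report, Itgb8 between GHMT and GMT at day 7 became called without GHMT replicate 2 or GMT replicate 3, at 0.42 to 0.49 (adjusted p = 0.0198 to 0.0415), Lama4 between AGHMT and GHMT at day 2 was lost without AGHMT replicate 1 or 2, at 0.24 to 0.25 (adjusted p = 0.0520 to 0.0522), and the GMT difference between days of Itga11 was lost without GMT replicate 1 or mock replicate 1 of day 2 or GMT replicate 2 of day 7, at -0.35 to -0.31 (adjusted p = 0.0801 to 0.0937). The differences between days of Itga3 and Itgb6 in AGHMT and of Lama5 in GHMT each became called without 1 library.

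The replicate numbers share only a number: deviations of same-numbered libraries correlated between -0.387 and 0.457, with a median of 0.0025. With the replicate block, the counts of members called were 28, 25 and 28 in AGHMT, GHMT and GMT against mock at day 7, 27, 28 and 27 at day 2, 20 and 23 for GHMT against GMT at day 7 and day 2, 19 and 23 for AGHMT against GHMT, 24, 23 and 27 for the differences between days in AGHMT, GHMT and GMT, and 23 for mock cells. Each equals the count without the block.

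The precision is limited by 3 libraries per group, by low counts of Itgb6, Itgb7, Lamb3 and Lamc3, and by the unknown strand setting for Itga8. Replicate 3 of AGHMT at day 2 lowers the values of several laminins in its group, among them Lama2, Lamc1 and Lama5. Without it, and beyond the calls named in the report, Itga1 in AGHMT against mock at day 2 was no longer called (-0.13, adjusted p = 0.0910), and Lama1 there (0.46, adjusted p = 0.00587) and the AGHMT differences between days of Itgb5 (0.13, adjusted p = 0.0324) and Lama1 (-0.64, adjusted p = 0.00504) became called.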

Other observations

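Libraries differed within groups in the balance of long and short genes. Lama2, Lamc1 and Lama5 were low in the libraries named here, where the longest genes were low. Levels of each library were set against the mean of the other 2 libraries of its group, over 10985 genes of at least 5 CPM on average. In replicate 3 of AGHMT at day 2, the 2197 longest genes stood at a median log2 difference of -0.23 and the 2198 shortest at 0.28, and Lama2, Lamc1 and Lama5 stood at -0.68, -0.60 and -0.65. Replicate 2 of GHMT at day 7 had -0.12 and 0.13, with the same laminins at -0.26, -0.20 and -0.43. Replicate 3 of GHMT at day 2 had -0.08 and 0.10, with -0.25, -0.25 and -0.27. Itgb1, a shorter gene, stood at 0.03, -0.06 and 0.01 in these libraries. These libraries were picked after their values were seen, and the part of this balance in the results was not tested. In the mock libraries of both days the medians of the longest genes stayed between -0.02 and 0.03. Lama5 did not follow the longest genes in every library. It stood at 0.39, beside 0.01 for those genes, in replicate 3 of GMT at day 7. In replicate 3 of mock at day 7 it stood at -0.24, beside 0.03.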
